A study of Mus musculus with 50 samples.

Results

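The 5' untranslated region (5' UTR) is the stretch of a messenger RNA between its start and the start codon. The regions described here are the m6A peaks that the authors' table of de novo peaks annotates to the 5' UTR, apart from those it annotates to the transcript start. They number 1205 of the 32009 peaks and lie on 1021 of the 14219 transcripts with a peak (7.18%). Among the peaks of the table, the label rests on annotation and position alone, and no score chose the members. Transcript-start peaks of the table end at position 199 of the transcript, and 5' UTR peaks begin at position 200. How a peak entered the table is not stated in the sources used here, so scores or calls may have had a part in that.

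N6-methyladenosine (m6A) is an adenosine that carries a methyl group, found within messenger RNAs. A complex whose catalytic subunit is METTL3 writes most of it, mainly at a short consensus motif, and most marks lie near stop codons and in 3' UTRs. In 5' UTRs m6A is known for a role in starting translation without the usual cap-binding factors, for example in stressed cells. The base next to the cap of many messages carries a related methyl mark that METTL3 does not write and that antibodies to m6A also bind.

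The peaks came from 12 m6A-seq libraries of mouse B cells kept overnight in LPS, a molecule of bacterial walls that makes B cells divide. Polyadenylated RNA was either enriched with an m6A antibody (IP) or kept as Input, from AIDcre Mettl3-flox/+ and AIDcre Mettl3-flox/flox cells, with 3 replicates of each kind of library and genotype. AIDcre is a recombinase driven by the gene of AID, an enzyme that B cells switch on after activation. Cells that had not yet expressed AID would keep METTL3, and the loss of METTL3 was not measured here. In the submitters' design text the m6A profile is of wild type cells; the genotypes above follow the sample labels. The labels give neither ages nor the mice behind each replicate, and their strain entry carries another number in each of these libraries and was not used. The other 38 libraries of the series measured expression in germinal center B cells and were not analysed here.

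The authors deposited 1 pooled score per peak and arm, in 2 versions. The sources used here give neither a formula nor a scale for it, so values below are in score units. The file headers name the arms test and control, without genotypes. Directions below rest on taking the test arm for the flox/+ cells, since the authors' METTL3-dependent list holds peaks that scored higher there; the arm of the flox/flox cells is called the comparator. No value per library was used, so depth and the spread between replicates are unknown, and no test over samples could be made. All comparisons between groups of peaks below are descriptions. Their 95% intervals (exact Clopper-Pearson for shares, exact binomial for medians) cover counting error only and treat peaks as independent, which peaks of a shared transcript are not.

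In these cells the 5' UTR peaks as a group scored nearly alike in both arms on the first version. On the second version they scored somewhat higher in the test arm. The median first-version score was 2.27 for the test arm (lowest -2.23, highest 6.60) and 2.24 for the comparator arm (-1.001 to 6.50). The difference per peak, test minus comparator, ran from -2.76 to 2.98 with a median of 0.02 (interval -0.02 to 0.09, quartiles -0.51 to 0.56). Over all peaks of the table that median was 0.25. The second version had medians of 3.09 and 2.83 and a median difference of 0.15 (0.09 to 0.22), against 0.49 over all peaks. The arms thus overlapped over nearly their whole range, and single peaks lay on both sides of the line of equal scores.

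Directions were mixed within the 5' UTR set, and both score versions gave the same sign in most members. Both differences were above 0 in 482 peaks (40.0%, against 54.5% over all peaks) and both below 0 in 372 (30.9%, against 22.5%). The versions had opposite signs in 344 peaks (28.5%, against 22.6% over all peaks), and the other 7 had a first-version difference of 0. Across the 1205 peaks the differences of both versions correlated with a Spearman coefficient of 0.61. Both versions come from the same libraries, so this is a description of the scores and not a replication.

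**Figure D1:**
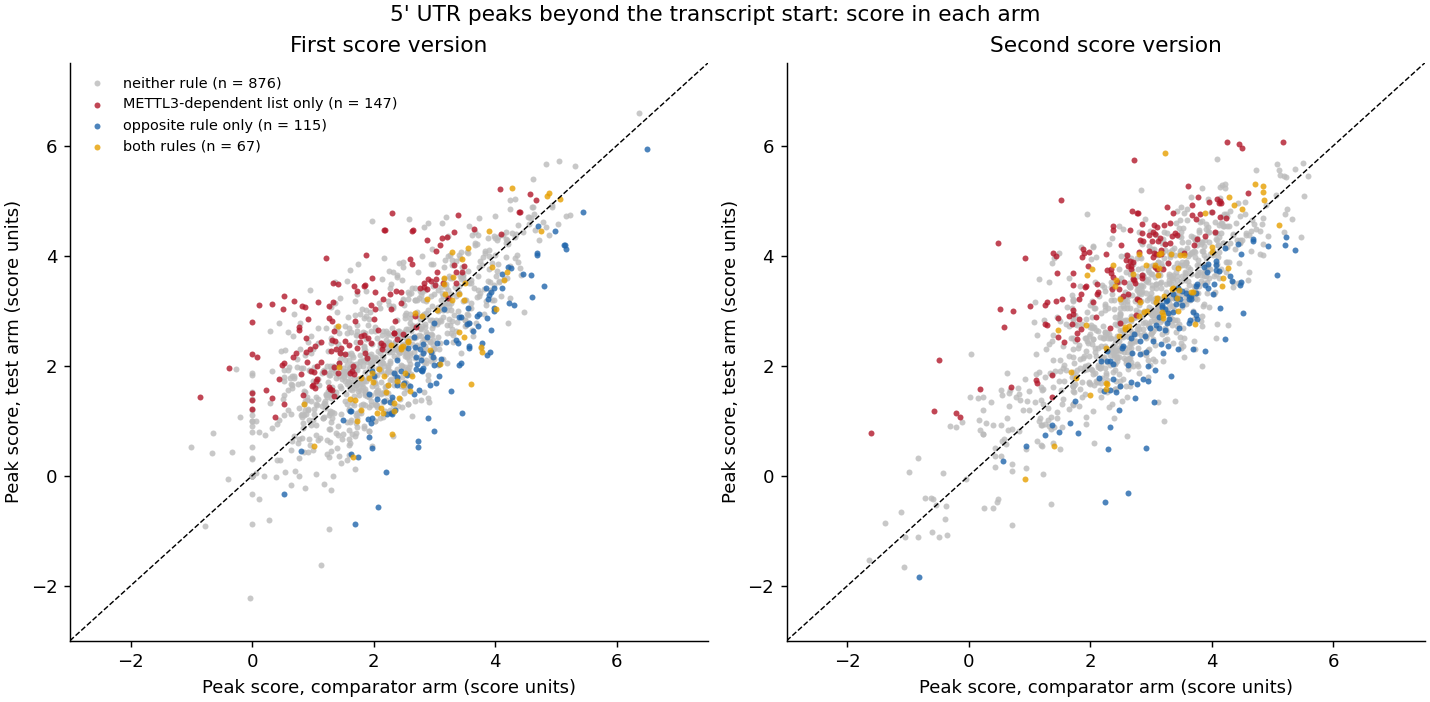
Score of each of the 1205 5' UTR peaks in the comparator arm (x axis) and the test arm (y axis), in score units, for the first (left) and second (right) score version; the dashed line marks equal scores and colours show which rule a peak met. Points lie on both sides of the line, with 147 peaks that met only the rule of the METTL3-dependent list, 115 only the opposite rule, 67 both and 876 neither.

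The METTL3-dependent list follows a rule that held without exception in the table: a peak is listed where either version has an unadjusted p under 0.1 and either version has the test arm above the comparator. Of the 5' UTR peaks 214 met it (17.8%, 15.6% to 20.04%), against 28.1% of all peaks. A mirrored rule, which asks for a higher comparator arm and is called the opposite rule below, took 182 (15.1%, 13.1% to 17.3%), against 10.7% of all peaks. Because each condition may come from a different version, 67 peaks met both rules. For 37 of the 214 listed peaks neither version alone gave both the p and the direction; 48 met them on the first version only, 99 on the second only and 30 on both.

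At an unadjusted p under 0.05, 38 of the 1198 5' UTR peaks with a first-version p were higher in the test arm (3.17%, against 8.18% of all peaks) and 49 in the comparator arm (4.09%, against 3.35%). On the second version the counts were 77 of 1205 (6.39%, against 12.9%) and 40 (3.32%, against 2.01%). Both versions together, with 1 direction, gave 12 peaks higher in the test arm (1.00%, against 4.14%) and 7 higher in the comparator arm (0.584%, against 0.515%). After Benjamini-Hochberg adjustment of the authors' p-values over all peaks, no 5' UTR peak passed 0.05, and the smallest adjusted values were 0.351 and 0.219 on the first and second versions. No peak of the whole table passed either (0% called). A single listed 5' UTR peak is therefore not a call that passed correction.

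The 5' UTR peaks sat close behind the transcript start. Their median position was 335 nt (quartiles 255 to 486), 485 lay at 300 nt or less (40.2%), 916 at 500 nt or less (76.0%), and 51 past 1000 nt (4.23%), the farthest at 3059 nt. The score difference changed along this stretch. At the border with the neighbouring annotation, the 831 transcript-start peaks at 150 to 199 nt had a median first-version difference of -0.20 (-0.27 to -0.14) with 12.0% listed, and the 279 5' UTR peaks at 200 to 250 nt had -0.08 (-0.20 to 0.00) with 13.6% listed (9.82% to 18.2%). On the second version these medians were -0.05 and -0.06. The intervals on either side of the border overlapped on both versions.

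Farther into the 5' UTR the second-version difference was larger, mainly among peaks near the consensus motif, as given further below. The median over all members was 0.04 at 251 to 300 nt, 0.13 at 301 to 400 nt and 0.25 at 401 to 500 nt. It was 0.40 at 501 to 700 nt and 0.37 at 701 to 1000 nt. At 1001 to 2000 nt it was 0.58 (0.29 to 0.92), from 46 peaks. The first version varied less evenly, with 0.00, -0.11, 0.12, 0.14, 0.26 and 0.24 in the same bins. The listed share was 15.5%, 17.0%, 20.6%, 20.6%, 22.9% and 30.4% (17.7% to 45.8%), with wide intervals in the far bins. The share under the opposite rule was 16.5% at 200 to 250 nt and 8.70% at 1001 to 2000 nt. Over all 5' UTR peaks, position and second-version difference correlated with a Spearman coefficient of 0.17 and the first-version difference with 0.12, both weak. The first-version test-arm score itself showed no steady rise: its median was 2.26 at 200 to 250 nt, 2.49 at 701 to 1000 nt and 2.07 at 1001 to 2000 nt, while that of the comparator arm was 2.38, 2.16 and 1.86.

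Coding-sequence peaks at the same distance from the transcript start offered a comparison in which position was held alike. Distance to the consensus motif was not held alike. At 301 to 400 nt 64.1% of 5' UTR peaks and 77.3% of coding-sequence peaks lay within 50 nt of it. At 401 to 500 nt these shares were 68.4% and 76.4%. At 200 to 250 nt the 268 coding-sequence peaks had a median first-version difference of -0.08, the same as the 5' UTR peaks, and 18.7% were listed (14.2% to 23.8%). On the second version the coding-sequence median was the higher one in every bin up to 1000 nt. The intervals did not overlap at 401 to 500 nt, with 0.53 (0.46 to 0.61) in the coding sequence and 0.25 (0.08 to 0.42) in the 5' UTR, and overlapped in the other bins. On the first version the 5' UTR median was the higher one at 701 to 1000 nt, 0.26 against 0.21. At 1001 to 2000 nt the coding-sequence median of 0.54 lay inside the wide interval of the 5' UTR median. Of the 1200 5' UTR peaks up to 2000 nt, 55.0% (52.1% to 57.8%) lay under the first-version median of the coding-sequence peaks in their own bin, and 59.2% did so on the second version.

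**Figure D2:**
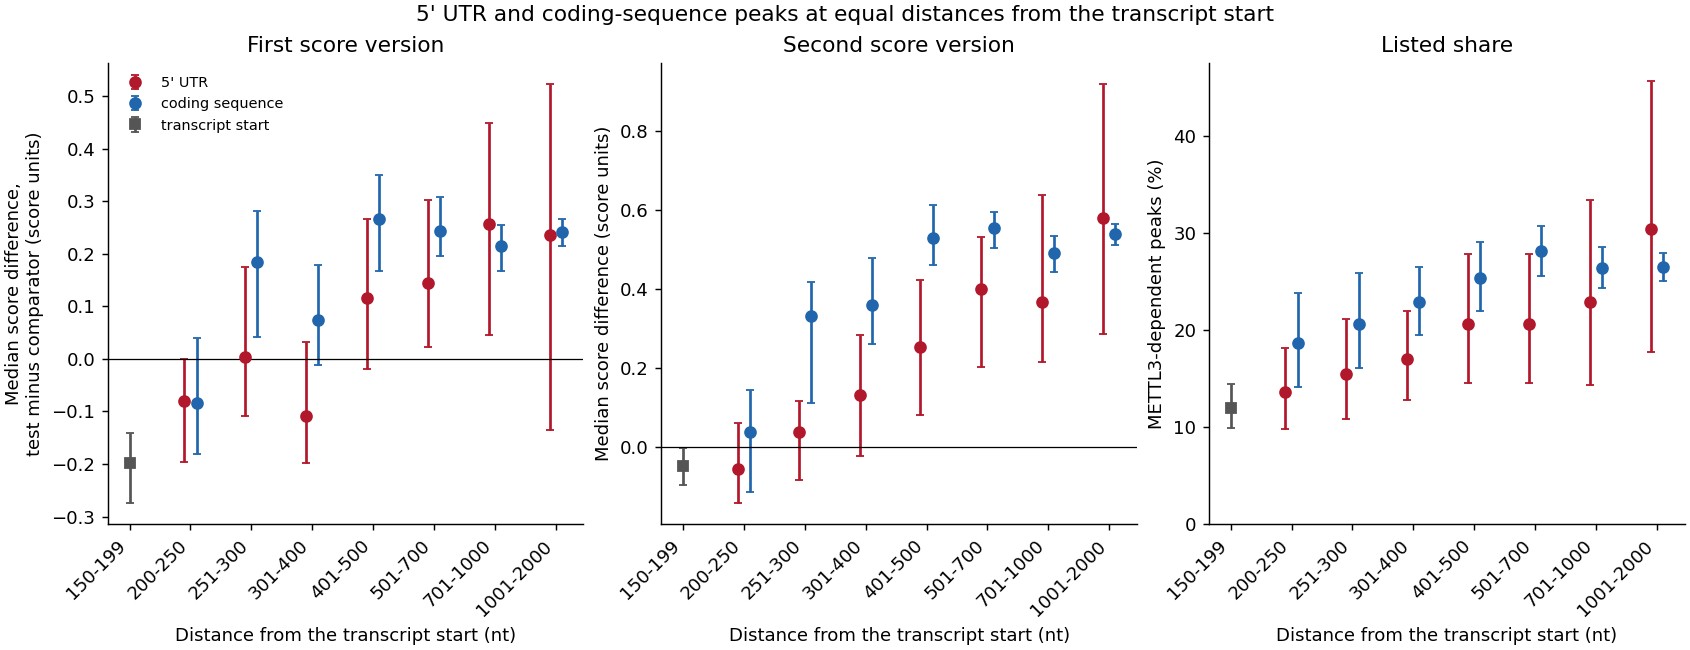
Median score difference (test minus comparator, score units; left first version, middle second version) and share of METTL3-dependent peaks (right, percent) by distance from the transcript start in nt, for 5' UTR peaks (red), coding-sequence peaks (blue) and the transcript-start peaks at 150 to 199 nt (grey square); bars are 95% intervals. On the second version the 5' UTR medians run from -0.06 to 0.58 and lie under the coding-sequence medians in each bin up to 1000 nt.

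The authors' table gives each peak's distance to a consensus motif that it does not spell out. In the 5' UTR 808 of 1205 peaks lay within 50 nt of it (67.1%, 64.3% to 69.7%). This share stood between those of the transcript start (51.9%, 50.7% to 53.1%) and the coding sequence (79.2%, 78.4% to 79.9%). The median distance was 28 nt in the 5' UTR (quartiles 9 to 67), 48 nt at the transcript start and 18 nt in the coding sequence. Transcript-start peaks had the motif on the negative side in 69.6% of cases, leaving out distances of 0, and 5' UTR peaks at 200 to 250 nt in 55.6% (49.5% to 61.5%). What a negative distance means is not stated in the sources used here.

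Motif distance and arm difference moved together within the 5' UTR. Of the 197 peaks within 5 nt of the motif 57 were listed (28.9%, 22.7% to 35.8%), with a first-version median difference of 0.17 and a second-version one of 0.53. At 6 to 20 nt 21.9% of 306 peaks were listed, at 21 to 50 nt 16.1% of 305, and at 51 to 100 nt 12.0% of 225. At 101 to 200 nt 10 of 132 were listed (7.58%, 3.69% to 13.5%), with median differences of -0.31 and -0.15. The 40 peaks beyond 200 nt were too few to place (10.0%, 2.79% to 23.7%). The second-version test-arm score went from 3.57 within 5 nt to 2.91 at 101 to 200 nt, while the comparator score went from 3.17 to 2.92.

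Peaks within 5 nt of the motif also lay farther from the transcript start, at a median of 396 nt against 295 nt for those at 101 to 200 nt, so both features were set side by side. Up to 300 nt, 54 of 307 5' UTR peaks near the motif (within 50 nt) were listed (17.6%, 13.5% to 22.3%) and 16 of 178 far from it (8.99%, 5.23% to 14.2%). Between 301 and 500 nt the shares were 22.6% (17.9% to 27.9%) and 10.1% (5.78% to 16.2%). Between 501 and 2000 nt they were 25.7% (19.99% to 32.1%) and 14.3% (7.07% to 24.7%). The near peaks thus had the higher listed share in each stretch, and the intervals did not overlap between 301 and 500 nt. Median second-version differences of the near peaks were 0.06, 0.35 and 0.57 in these stretches, and those of the far peaks -0.08, -0.09 and 0.06. On the first version they were -0.03, 0.04 and 0.24 near the motif and -0.13, -0.16 and -0.03 far from it. The share of near peaks was 63.8% at 200 to 250 nt and 78.3% at 1001 to 2000 nt. Coding-sequence peaks up to 300 nt gave 24.1% (19.8% to 28.8%) near the motif and 10.9% (6.77% to 16.3%) far from it.

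**Figure D3:**
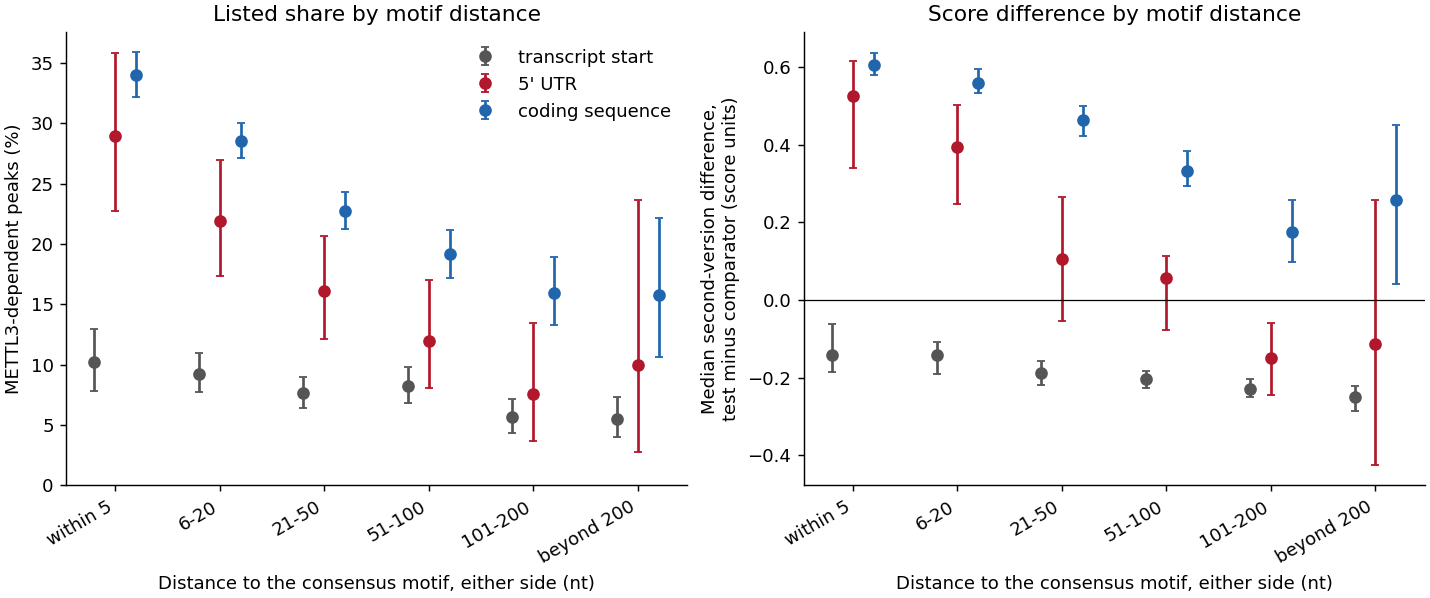
Share of METTL3-dependent peaks (left, percent) and median second-version score difference (right, test minus comparator, score units) by distance to the consensus motif in nt, for peaks at the transcript start (grey), in the 5' UTR (red) and in the coding sequence (blue); bars are 95% intervals. In the 5' UTR the listed share goes from 28.9% within 5 nt, where the coding sequence has 34.0%, to 7.58% at 101 to 200 nt, where the transcript start has 5.65%.

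The table also counts, per arm, the peaks called, from 0 to 3, taken here to mean in how many replicates a peak was called. In the 5' UTR 130 peaks were called in all 3 replicates of both arms (10.8%, 9.09% to 12.7%), 225 in none (18.7%), and 416 in at least 2 replicates of an arm (34.5%, 31.8% to 37.3%). The shares over all peaks were close to these, at 9.58%, 15.9% and 36.2%. Calls were balanced between the arms: 395 peaks had more calls in the test arm, 383 had more in the comparator arm and 427 had equal numbers. Over all peaks 38.0% had more test calls and 29.3% more comparator calls. These calls come from the libraries that also give the scores, so they are no independent support for a difference.

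The 5' UTR peaks called in all replicates of both arms had the higher median score in the comparator arm. Choosing peaks by calls is itself tied to the score difference. Among peaks with 3 test calls, those with 0, 1, 2 and 3 comparator calls had median first-version differences of 1.10, 0.45, 0.10 and -0.19. The sign in this subset is therefore not independent of how it was chosen. The 130 peaks called in all replicates had median first-version scores of 3.32 (test) and 3.56 (comparator). Their median difference was -0.19 on both versions (-0.36 to -0.09 on the first, -0.28 to -0.13 on the second). The difference was below 0 in 84 of them on the first version, in 99 on the second and in 70 on both. The opposite rule was met by 45 of the 130 (34.6%) and the list's rule by 20 (15.4%, 9.66% to 22.8%). Transcript-start peaks called in all replicates met the opposite rule in a similar share, 555 of 1689 (32.9%). Such coding-sequence peaks met it in 63 of 446 cases (14.1%). The shares were lower still for stop-codon peaks (6.93%) and 3' UTR peaks (4.33%) called in all replicates.

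Coding-sequence peaks called in all replicates had the other sign when pooled. Those 446 peaks had median differences of 0.14 and 0.44, with 40.1% listed (35.6% to 44.8%). The 1689 transcript-start peaks called in all replicates had -0.30 and -0.25, with 6.22% listed (5.11% to 7.48%). By their scores, fully called 5' UTR peaks thus lay nearer to transcript-start peaks than to the pooled coding-sequence peaks. Position was not held alike here. The median position was 301 nt for fully called 5' UTR peaks and 1258 nt over all coding-sequence peaks, called or not. The part that position had in this was not tested. Fully called 5' UTR peaks also lay nearer the start than other members. Of the peaks at 200 to 300 nt 13.4% were called in all replicates, 9.74% of those at 301 to 500 nt and 7.96% of those past 500 nt.

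In the 5' UTR the sign was the same near the motif and far from it. Among the fully called 5' UTR peaks the 78 near the motif had median differences of -0.21 and -0.12, and the 52 far from it -0.18 and -0.30. The 388 fully called coding-sequence peaks near the motif had 0.16 and 0.48, but the 58 far from it had 0.01 and -0.17, so that on the second version these had the sign of the 5' UTR peaks. The 225 5' UTR peaks called in no replicate had median differences of 0.20 and 0.43, with 53 listed (23.6%, 18.2% to 29.7%), close to the 23.3% of coding-sequence peaks with no call. Of the 214 listed 5' UTR peaks, 53 thus had no call in any replicate. The same held for 39 of 529 listed transcript-start peaks and 534 of 3033 listed coding-sequence peaks. Around the stop codon it held for 389 of 3168 listed peaks, and in the 3' UTR for 324 of 2061. Listed or not, 15.9% of all peaks had no call, and 18.7% of 5' UTR peaks. The share was 7.02% at the transcript start and 19.7% in the coding sequence. Around the stop codon it was 15.9% and in the 3' UTR 18.4%.

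**Figure D4:**
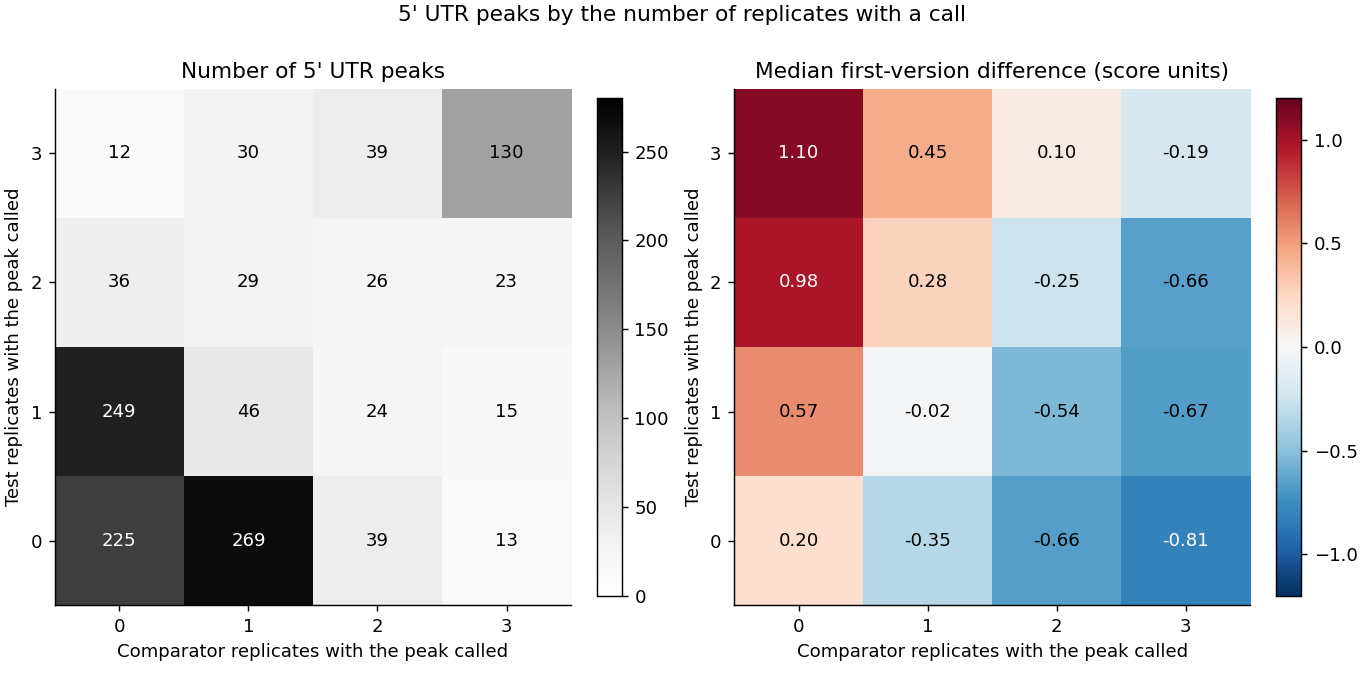
Number of 5' UTR peaks (left) and their median first-version score difference (right, test minus comparator, score units) by the number of test replicates (y axis) and comparator replicates (x axis) with the peak called. The 130 peaks called in all replicates have a median of -0.19, and the peaks with calls in 1 arm only have medians from -0.81 to 1.10 in the direction of that arm.

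Other peaks of the same messages allowed 5' UTR peaks to be compared within a transcript. Of the 1021 transcripts with a 5' UTR peak, 248 also had a transcript-start peak (24.3%), 380 a coding-sequence peak (37.2%), 357 a peak around the stop codon (35.0%) and 226 a 3' UTR peak (22.1%). On 330 transcripts (32.3%) the 5' UTR held the only peaks, and 21 transcripts had peaks in all 5 parts. Where a part held several peaks, the one with the highest mean first-version score was taken.

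Each part was paired with the 5' UTR on its own set of transcripts. The difference of the 5' UTR peak was larger than that of the transcript-start peak in 161 of 248 transcripts (64.9%, 58.6% to 70.8%), by a median of 0.13 (first version) and 0.19 (second version). It was larger than that of the coding-sequence peak in 148 of 380 transcripts (38.9%, 34.0% to 44.1%), with medians of -0.20 and -0.24. Against the peak around the stop codon it was larger in 77 of 357 (21.6%, 17.4% to 26.2%), with medians of -0.70 and -0.85, and smaller on both versions in 259. Against the 3' UTR peak it was larger in 52 of 226 (23.0%, 17.7% to 29.1%), with medians of -0.61 and -0.63.

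The gap to the stop codon appeared in both arms with opposite sign. In the test arm the first-version score of the 5' UTR peak was lower than that of the stop-codon peak by a median difference of -0.25 (-0.38 to -0.10). In the comparator arm it was higher, by a median of 0.35 (0.14 to 0.54). The second version gave -0.25 and 0.46. Of these 357 transcripts 39 had both peaks listed, 142 only the stop-codon peak, 20 only the 5' UTR peak and 156 neither.

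Differences of 5' UTR and transcript-start peaks of the same message went together. Across the 248 transcripts the Spearman coefficient was 0.71 on the first version (Pearson 0.72) and 0.51 on the second. On the first version it was 0.84 for the 130 pairs up to 200 nt apart and 0.59 for the 118 pairs farther apart. For coding-sequence peaks it was 0.32 over 380 transcripts, 0.75 over the 55 pairs up to 200 nt apart and 0.24 over the 325 farther apart. For stop-codon peaks it was 0.20 and for 3' UTR peaks 0.07. The second version gave lower coefficients: 0.69 and 0.31 for the near and far transcript-start pairs, 0.60 and 0.03 for the near and far coding-sequence pairs (0.11 together), 0.00 for stop-codon peaks and -0.04 for 3' UTR peaks. Both peaks of a pair share libraries and transcript level, and nearby peaks may share RNA fragments, so these values are descriptions.

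**Figure D5:**
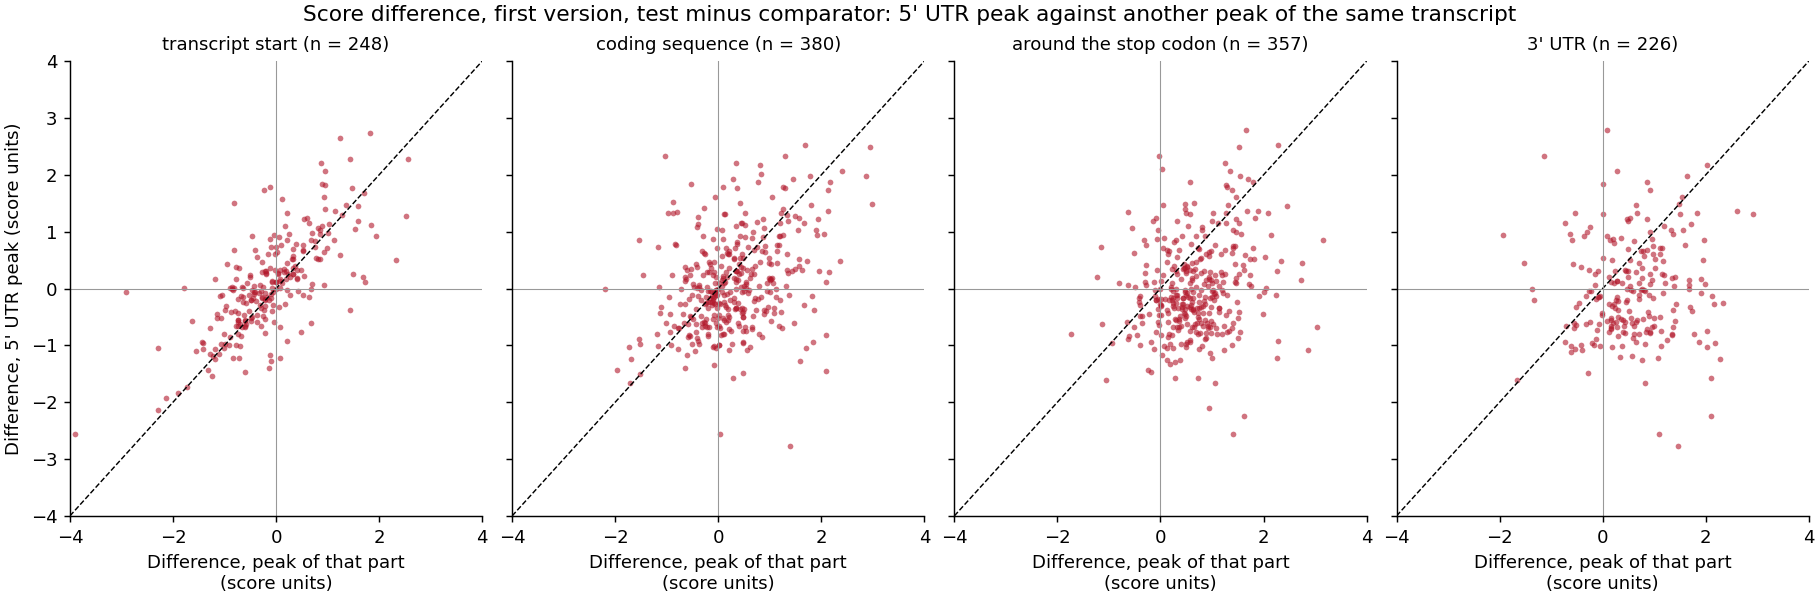
First-version score difference (test minus comparator, score units) of the 5' UTR peak (y axis) against that of the strongest transcript-start, coding-sequence, stop-codon or 3' UTR peak of the same transcript (x axes), 1 point per transcript; the dashed line marks equal differences. Points follow the line for the 248 transcript-start pairs and fall below it for most of the 357 stop-codon pairs, where 77 lie above.

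The values of a 5' UTR peak also varied with the other peaks on its transcript. The 301 members on transcripts with a transcript-start peak were listed in 23.3% of cases (18.6% to 28.4%), and the other 904 in 15.9% (13.6% to 18.5%). The former lay within 50 nt of the motif in 73.1% of cases and the latter in 65.0%, and calls in at least 2 replicates of an arm were recorded for 20.6% and 39.2%. The part that motif distance and calling had in the listed shares was not tested. Members on transcripts with no peak elsewhere had lower median first-version scores, 2.07 and 2.02 in the test and comparator arms, than the 846 others, 2.32 and 2.29. Their listed shares were 17.3% and 18.0%, while their second-version median differences were -0.01 (-0.10 to 0.12) and 0.22 (0.15 to 0.30).

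Several 5' UTR peaks lay on 141 transcripts (13.8%), which together held 325 members at a median spacing of 153.5 nt (quartiles 103 to 260.5). In 96 of these transcripts (68.1%) all members had the same sign of difference, on the first version as on the second. All members were listed in 10 transcripts, some in 33 and none in 98. The member farthest from the start had the larger first-version difference in 71 of 141 transcripts, with a median change of 0.01 (-0.04 to 0.09), and the larger second-version difference in 63, with a median change of -0.09 (-0.19 to 0.07). The weak trend with position over all members was thus not seen between members of a transcript. These members lay a short way apart and motif distance was not held alike, so the comparison cannot decide whether the trend holds there.

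Some members may be the same site seen through different transcript models. A peak of another transcript lay within 50 nt on the genome for 93 members (7.72%): for 61 it was also a 5' UTR peak, and for 32 it carried another annotation, most often the transcript start (17) or the coding sequence (14). For these 32 the assignment to the 5' UTR may depend on the transcript model chosen. Strand was not compared, and 0 members had a peak of another annotation at the very same genome position.

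Single peaks are given by the table's transcript identifiers, none of which matched the gene name tables used here, with positions taken as mouse build mm9. By the naming rule the largest difference, test minus comparator, was 276 nt into uc008jmv.1, on chromosome 2 at position 37298366, and 7 nt from the motif (-7). The authors' deposited table gives it a test-arm score of 2.85 against 0.93 for the comparator (second version 4.24 and 0.47), with unadjusted p of 0.0470 and 0.0141. The other 4 peaks of uc008jmv.1 had positive first-version differences too, from 0.28 to 1.87, and 3 of them were listed. Next by the rule, in the authors' deposited table, was the peak at 252 nt of uc007yxp.1, on chromosome 16 at position 31664376, with 1.95 and -0.38 (second version 2.11 and -0.49; unadjusted p of 0.0533 and 0.0423). Both were called in 1 test replicate and in no comparator replicate. Of the other 6 peaks of uc007yxp.1, 5 had first-version differences below 0, from -2.30 to -0.03, and none was listed.

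The 2 most negative peaks by the same rule lay at nearly the same genome position, on different transcript models. In the authors' deposited table uc008jym.1, at 214 nt and position 69561358 of chromosome 2, had a test-arm score of 2.24 against 3.91 for the comparator (second version 2.27 and 3.88; unadjusted p of 0.0522 and 0.0753). There uc008jyn.1, 1 nt away at position 69561357, had 2.42 and 3.78 (second version 2.30 and 3.69). The table gives motif distances of -131 and 170 nt to these neighbours, so here the distance differed between transcript models. Both were called in 2 test replicates, and in 3 and 2 comparator replicates.

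The 2 highest-scoring 5' UTR peaks on the first version lay near the transcript start and more than 50 nt from the motif. The authors' deposited table gives the peak at 218 nt of uc007nif.2, on chromosome 12 at position 33505417 and 75 nt from the motif, scores of 6.60 and 6.37 (second version 3.23 and 3.36), with calls in all 3 replicates of both arms and unadjusted p of 0.749 and 0.604. The next, at 296 nt of uc007six.1 on chromosome 14 at position 20779913 and 128 nt from the motif, had 5.94 for the test arm and 6.50 for the comparator (second version 4.26 and 4.68; unadjusted p of 0.0424 and 0.104) in the authors' deposited table. That peak of uc007six.1 was called in only 1 test replicate and 2 comparator replicates. The transcript with most members, uc008zqs.1 on chromosome 5, held 5. Its first member, at 214 nt, had a second-version difference of -1.43 in the authors' deposited table, and those at 516, 620, 722 and 888 nt had 0.62, 0.76, 0.57 and 0.31. On the first version the same members of uc008zqs.1 had -0.93, 0.13, 0.43, 0.05 and -0.34 in the authors' deposited table, and none of the 5 was listed.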

How the data were processed

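Values were read from the table of de novo m6A peaks that the authors deposited, and list membership from their METTL3-dependent table, joined on position and transcript. The peak score per arm (2 versions) and its difference are the authors' own deposited values, pooled over replicates, and the p-values are deposited unadjusted. The submitters' processing notes name cutadapt, STAR, HTSeq, SAMtools 1.3.1 and DESeq2 for the series, with builds mm10 and mm9; those used here name no peak caller, score formula or test. Positions of 164 peaks, 6 of them members, passed the ends of 7 GRCm38 chromosomes, so they were taken as mm9. The genome used here is GRCm38, so no sequence was read.

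Members, bins and groups were chosen with earlier results of these data known. The planned gene lists could not be applied: 0 of 1021 transcripts matched a name. Named peaks were, by mean difference, the 2 highest and the 2 lowest among those with p under 0.1 and 1 direction on both versions, the 2 with the highest mean first-version score, and the transcript with most members. Adjustment by Benjamini-Hochberg ran over all peaks of the table. Alternatives were other p thresholds, score versions, motif windows and subsets of members. Software was Python 3.11.15, pandas 2.3.3, numpy 2.4.6, scipy 1.17.1 and, for figures, matplotlib 3.10.9; the summaries were tested on simulated data. As no label ties the replicates to separate animals, the spread behind the deposited p-values may be technical.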

Additional observations from a re-analysis of the deposited data

How the results depend on the processing

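The listed share of 5' UTR peaks, 17.8%, was 9.71% with p under 0.05, 1.99% with p under 0.01, 6.47% with the first version only, 10.7% with the second only and 2.49% where both had to hold. It was 14.7% when a version had to give both p and direction and 15.1% under the opposite rule, both chosen after seeing the data. The median difference, 0.02, was 0.15 on the second version, -0.13 among peaks called in at least 2 replicates of an arm and -0.19 among those called in all replicates of both arms, the last also chosen after seeing the data. The share near the motif, 67.1%, was 41.7% within 20 nt and 85.7% within 100 nt, and the listed share near the motif, 21.4%, was 24.7% with the 20 nt window. The share under the coding-sequence median at equal distance, 55.0%, was 59.2% on the second version. The other 21 of 35 values lay within the main value's 95% interval. These include the strongest peak per transcript, members beyond 300 nt and, chosen after seeing the data, members with no other transcript's peak within 50 nt. No paired analysis was possible because the tables hold 1 pooled value per arm; for the same reason no replicate could be left out. The tables hold no read counts, so depth is unknown.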
